A study of Mus musculus with 5 samples.

Results

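The genes of antigen presentation were described in mouse liver tumours, from a deposited table of 22287 genes. The members were the rows whose symbol begins with H2-, together with B2m, Tap1, Tap2, Tapbp, Psmb8, Psmb9, Psmb10, Cd74, Ciita and Nlrc5, which gave 48 genes, 38 of them with an H2- symbol. Tumours came from 3 lnc-CTHCC-/- samples (KO) and 2 wild-type samples (WT), all of strain C57BL/6 and all given the carcinogen DEN and the hepatotoxin CCl4 over 5 months. lnc-CTHCC is a long non-coding RNA, and the labels do not say in which cells it was lost or whether samples of a genotype came from separate mice, so p-values may measure only technical spread. Values are FPKM, which count fragments relative to gene length and library size, and the comparison asks which of these transcripts differ between tumours with and without the RNA.

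Antigen presentation runs along 2 routes. Class I molecules pair a heavy chain with beta-2 microglobulin and show peptides cut in the cytosol by the proteasome, and nearly every nucleated cell makes them. Class II molecules pair an alpha and a beta chain, are guided by the invariant chain Cd74 into endosomes, and are made mainly by dendritic cells, macrophages and B cells. In mouse most of these genes lie together in the H2 complex on chromosome 17, and NLRC5 and CIITA are the transactivators of class I and class II genes.

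In these tumours the classical class I genes were abundant and varied little between libraries, and the class II genes were less abundant and differed by 1.62 to 1.99 times between the 2 WT libraries. The classical class I heavy chain H2-K1 had 641 to 701 FPKM in KO tumours, against 661 and 704 FPKM in WT tumours. The class II chain H2-Aa had 70.6, 48.2 and 55.5 FPKM in KO tumours, against 51.3 and 102 FPKM in WT tumours, so that WT 2 stood above every other library while WT 1 lay among the KO libraries. No member passed the test of KO against WT (limma, Benjamini-Hochberg adjusted p = 0.999 for each of the 26 members tested, 0 with an unadjusted p under 0.05), where 0.00987% of the 10132 genes tested passed and 3.23% had an unadjusted p under 0.05.

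The libraries themselves differed. Their FPKM sums lay between 526200 and 552600, their depth is unknown, and across the genes tested the lowest correlation of any pair was that of WT 1 with WT 2 (r = 0.965). On the first principal component (43.9% of variance) WT 1 and WT 2 were the extremes, with the KO libraries between them. Alb, the hepatocyte gene of serum albumin, took 14.6% to 15.6% of the FPKM sum in KO libraries and 17.1% and 14.1% in WT 1 and WT 2. For H2-Q10, for class II and for the ratio of class I to class II, log2 differences are therefore also given without WT 1 or WT 2. Cell type markers are given with all libraries only. Genotypes are as labelled, since the deleted transcript was not analysed here.

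Of the 48 members, 26 had a mean of at least 1 FPKM over the 5 libraries and were tested, 10 were above 0 but below that level, and 12 were listed at 0 in every library. The 12 were the class II pseudogene H2-Ea-ps, the class I gene H2-T3 and 10 genes of the H2-M region. The 10 low genes had means of 0.082 to 0.968 FPKM and single values of up to 1.18 FPKM. They were H2-T24, H2-Q5, H2-Q2, H2-M2 and H2-Bl of class I, H2-Eb2, H2-DMb2, H2-Oa and H2-Ob of class II, and Ciita. By position, 43 members lie on chromosome 17 between 33915899 and 37483552 (GRCm38, GENCODE vM21), and the other 5 are B2m on chromosome 2, Psmb10 and Nlrc5 on chromosome 8, Ciita on chromosome 16 and Cd74 on chromosome 18.

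**Figure D1:**
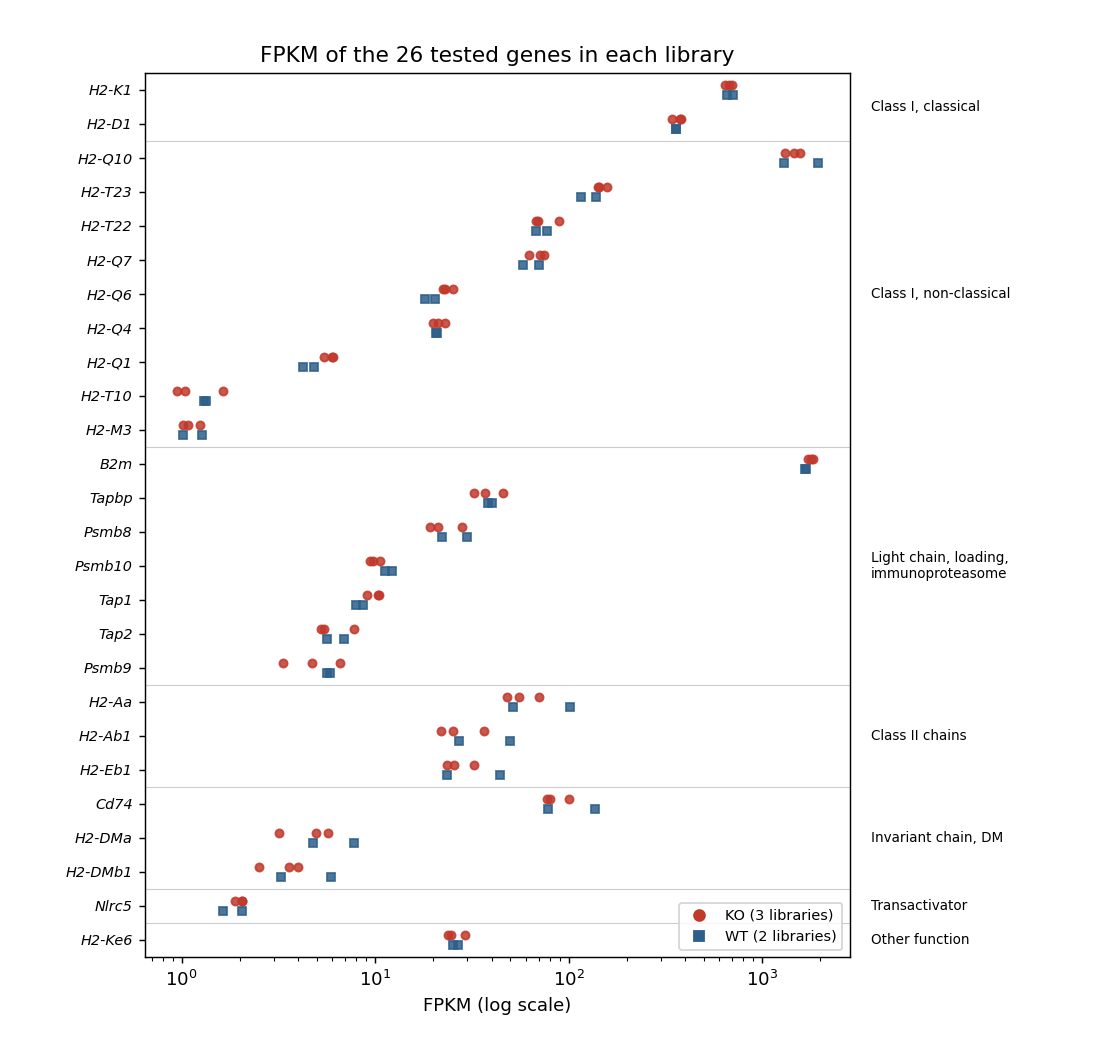
FPKM of the 26 members tested, on a log axis, with 1 row per gene grouped by role; circles are the 3 KO libraries and squares the 2 WT libraries. B2m and H2-Q10 have the highest means, 1734 and 1516 FPKM, and in each class II row the highest point is a WT square, WT 2.

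Among the class I heavy chains, the classical pair H2-K1 and H2-D1, which present peptides to CD8 T cells, varied least. H2-K1 (ENSMUSG00000061232, chromosome 17, 33996017 to 34000347, minus strand) was at 677, 701 and 641 FPKM in KO tumours and at 661 and 704 FPKM in WT tumours. The genotypes overlapped, and the ratio of its highest to its lowest library was 1.099. H2-D1 (ENSMUSG00000073411, chromosome 17, 35262730 to 35267499, plus strand) stood at 380.15, 375 and 341 FPKM in KO tumours and at 360.1 and 358 FPKM in WT tumours. The difference between KO and WT, here and below in log2(FPKM + 1) units, was -0.02 for H2-K1 (95% confidence interval -0.38 to 0.34) and 0.02 for H2-D1 (95% confidence interval -0.33 to 0.38). Both intervals include changes of either sign, and the sign itself flipped for H2-K1 after rescaling to a common sum or quantile normalization and for H2-D1 after median-ratio rescaling.

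H2-Q10, a class Ib heavy chain known in mouse as a soluble product of hepatocytes, had the highest level of the heavy chains. H2-Q10 (ENSMUSG00000067235, chromosome 17, 35470089 to 35474563, plus strand) reached 1309, 1466 and 1568 FPKM in KO tumours and at 1937 and 1301 FPKM in WT tumours. WT 1 and WT 2 were its highest and lowest libraries, as they were for Alb, with all 3 KO libraries between them. It made up 48.3% to 54.5% of the summed heavy chain FPKM in KO tumours, against 59.2% and 48.6% in WT 1 and WT 2. The ratio of H2-Q10 to H2-K1 FPKM was 1.93, 2.09 and 2.45 in KO tumours and 2.93 and 1.85 in WT tumours. The log2 difference of H2-Q10 was -0.14 (SE 0.211) with all libraries, 0.15 without WT 1 and -0.42 without WT 2.

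The start regions of these heavy chains are shown because H2-Q10 shares most of its letters with the classical pair but followed another pattern across the libraries. They are RefSeq windows on GRCm38.p6 of 250 bases before to 50 after the annotated start, written 5′ to 3′ on the gene's strand. Capitals mark matches on either strand to GGGATTCCC, the core of the enhancer A site bound by NF-kB. They also mark the CCAAT box, the letters TGACG of a CREB site, and the TATA box letters TATAAA.
H2-K1, chr17:34000298-34000597, minus strand: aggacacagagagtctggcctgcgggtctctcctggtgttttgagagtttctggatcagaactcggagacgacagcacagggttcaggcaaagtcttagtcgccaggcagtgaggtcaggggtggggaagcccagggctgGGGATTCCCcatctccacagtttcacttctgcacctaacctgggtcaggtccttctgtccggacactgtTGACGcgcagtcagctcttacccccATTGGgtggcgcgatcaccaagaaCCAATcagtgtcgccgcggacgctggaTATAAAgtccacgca
H2-D1, chr17:35262844-35263143, plus strand: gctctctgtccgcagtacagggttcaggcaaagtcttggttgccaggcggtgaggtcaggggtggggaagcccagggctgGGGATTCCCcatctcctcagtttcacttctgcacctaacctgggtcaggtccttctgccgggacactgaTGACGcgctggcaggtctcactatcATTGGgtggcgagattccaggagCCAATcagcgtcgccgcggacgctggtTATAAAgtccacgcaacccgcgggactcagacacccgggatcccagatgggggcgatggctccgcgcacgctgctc
H2-Q10, chr17:35469839-35470138, plus strand: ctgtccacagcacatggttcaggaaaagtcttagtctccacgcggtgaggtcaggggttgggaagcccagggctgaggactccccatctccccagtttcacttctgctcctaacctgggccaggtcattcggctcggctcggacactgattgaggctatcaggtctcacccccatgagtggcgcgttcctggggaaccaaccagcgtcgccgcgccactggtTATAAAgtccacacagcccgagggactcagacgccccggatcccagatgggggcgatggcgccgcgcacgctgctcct

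The H2-K1 and H2-D1 windows each hold all 4 of these motifs, and the H2-Q10 window holds TATAAA alone, although 87.3% of 291 aligned bases are identical between H2-Q10 and H2-D1. The windows are placed differently on the shared letters. In H2-K1 the downstream CCAAT and TATAAA begin 8 and 35 bases after the annotated start. In H2-D1 they begin 53 and 26 bases before it. Counted from the 5′ end of each H2-D1 match, the enhancer A letters of H2-Q10 differ by G1A and T5C, and its downstream CCAAT letters by T5C. The TGACG letters differ by G2T, A3G and C4A, and the upstream CCAAT match, read as ATTGG, by G5A and a gap. GGGATTCCC is found in 116 of 32851 RefSeq windows (0.353%), and in 4 of the 9 windows of tested heavy chains, those of H2-K1, H2-D1, H2-Q6 and H2-Q7. Among all windows, the CCAAT letters are found in 37.4%, the TGACG letters in 20.8% and the TATAAA letters in 13.6%. A match is a match of letters and was not tested as a binding site.

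The other non-classical heavy chains had lower levels. H2-T23, whose product Qa-1 presents leader peptides of other class I molecules to NK receptors, was at 143, 157 and 142 FPKM in KO tumours and at 139.0 and 116 FPKM in WT tumours, so that every KO library lay above both WT libraries. H2-Q6 was at 25.3, 23.1 and 22.5 FPKM in KO tumours and at 18.1 and 20.4 FPKM in WT tumours, again without overlap. H2-Q1 was at 5.99, 6.07 and 5.46 FPKM in KO tumours and at 4.83 and 4.22 FPKM in WT tumours, also without overlap. The log2 differences were 0.21 (SE 0.165) for H2-T23, 0.28 (SE 0.167) for H2-Q6 and 0.31 (SE 0.180) for H2-Q1, and none passed the test (limma adjusted p = 0.999 each, unadjusted p = 0.229, 0.126 and 0.121).

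Such a position of all KO libraries above both WT libraries was seen in 9.78% of all genes tested. After median-ratio rescaling H2-Q6 alone of these 3 kept it, and after quantile normalization H2-T23 and H2-Q6 did. H2-Q2, below the filter, had 0.78, 0.80 and 0.72 FPKM in KO tumours and 0.61 and 0.38 FPKM in WT tumours.

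In the remaining tested heavy chains the genotypes overlapped. H2-Q7, a Qa-2 gene, was at 71.2, 74.3 and 62.5 FPKM in KO tumours and 58.1 and 70.0 FPKM in WT tumours. H2-T22, a ligand of some gamma-delta T cells, was at 69.1, 88.7 and 67.5 FPKM in KO tumours and 67.9 and 77.4 FPKM in WT tumours, with KO 2 above the rest. H2-Q4 stayed between 19.97 and 22.9 FPKM in KO tumours and at 20.6 and 21.0 FPKM in WT tumours. H2-M3, which presents N-formylated peptides, had 1.25, 1.08 and 1.01 FPKM in KO tumours and 1.28 and 1.02 FPKM in WT tumours, and H2-T10 had 0.95 to 1.63 FPKM in KO and 1.33 and 1.3 FPKM in WT tumours. GENCODE vM21 lists H2-T10 as a polymorphic pseudogene, as it does H2-Q5 and H2-Bl below the filter. The protein-coding gene Gm7030 overlaps H2-T10 on the same strand. Values of the Q and T genes may be mixed where near-identical copies share reads: the start windows of H2-Q6 and H2-Q7 are 97.7% identical over 260 aligned bases.

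By mean log2 value, 7 of the 11 heavy chains tested were higher and 4 lower in KO, with a median log2 difference of 0.04, against 61.4% higher and a median of 0.05 over all genes tested. The median was -0.02 after median-ratio rescaling, and at most 0.07 with each library left out in turn.

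B2m, the light chain shared by all class I molecules, was the most abundant member of all by mean. It was at 1778, 1825 and 1717 FPKM in KO tumours and at 1675 and 1676 FPKM in WT tumours, so that every KO library lay above both WT libraries, by a ratio of means of 1.06. The log2 difference of B2m was 0.08 (SE 0.162), and the genotypes overlapped after median-ratio rescaling or quantile normalization. The ratio of B2m to the summed heavy chain FPKM was 0.657, 0.626 and 0.597 in KO tumours and 0.512 and 0.626 in WT tumours, lowest in WT 1, where H2-Q10 was highest.

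Peptides for class I are carried into the endoplasmic reticulum by the transporter TAP, a pair of the Tap1 and Tap2 proteins, and handed to the heavy chain by tapasin, encoded by Tapbp. Tap1 was at 10.37, 10.42 and 9.10 FPKM in KO tumours and at 8.62 and 8.0 FPKM in WT tumours, without overlap. Tap2 was at 5.42, 7.81 and 5.28 FPKM in KO tumours and at 6.93 and 5.65 FPKM in WT tumours, with the genotypes overlapping. Tapbp was at 36.8, 45.6 and 32.6 FPKM in KO tumours and at 40.3 and 38.1 FPKM in WT tumours. The log2 difference of Tap1 was 0.23 (SE 0.175, limma adjusted p = 0.999), and the genotypes overlapped for Tap1 after median-ratio rescaling or quantile normalization.

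The immunoproteasome replaces the 3 catalytic subunits of the standard proteasome with Psmb8, Psmb9 and Psmb10, which changes the peptides that are cut. Psmb8 was at 21.2, 28.0 and 19.3 FPKM in KO tumours and at 30.0 and 22.1 FPKM in WT tumours, highest in WT 1. Psmb9 was at 3.35, 6.60 and 4.73 FPKM in KO tumours and at 5.83 and 5.66 FPKM in WT tumours, so that KO 2 and KO 1 were its highest and lowest libraries. Psmb10 was at 9.75, 10.59 and 9.45 FPKM in KO tumours and at 11.3 and 12.2 FPKM in WT tumours, and was the 1 tested member with every KO library below both WT libraries in the values as deposited. This position was seen in 5.29% of all genes tested. Psmb10 held it under each of the 3 rescalings, and the class II gene H2-DMa gained it after median-ratio rescaling and after quantile normalization. The log2 difference of Psmb10 was -0.22 (SE 0.171, limma adjusted p = 0.999), short of the threshold.

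Each immune subunit stood below the standard subunit it replaces. The ratio of Psmb8 to Psmb5 FPKM was 0.606, 0.694 and 0.563 in KO tumours and 0.739 and 0.605 in WT tumours. The ratio of Psmb9 to Psmb6 was 0.0643, 0.106 and 0.0831 in KO tumours and 0.101 and 0.107 in WT tumours. The ratio of Psmb10 to Psmb7 was 0.209, 0.203 and 0.210 in KO tumours and 0.234 and 0.224 in WT tumours. Of these 3 ratios, only that of Psmb10 separated the genotypes in the libraries as deposited, and a test of 3 against 2 libraries cannot give an exact two-sided permutation p below 0.1.

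Tap1 and Psmb9 are read in opposite directions from a shared stretch of chromosome 17, with RefSeq starts 226 bases apart, so that their 300-base windows share 275 bases. The Tap1 window is shown because the genes on its sides differed in position: Tap1 was without overlap and Psmb9 was not. Capitals mark the CCAAT box and, further on, the TGACG letters.
Tap1, chr17:34187306-34187605, plus strand: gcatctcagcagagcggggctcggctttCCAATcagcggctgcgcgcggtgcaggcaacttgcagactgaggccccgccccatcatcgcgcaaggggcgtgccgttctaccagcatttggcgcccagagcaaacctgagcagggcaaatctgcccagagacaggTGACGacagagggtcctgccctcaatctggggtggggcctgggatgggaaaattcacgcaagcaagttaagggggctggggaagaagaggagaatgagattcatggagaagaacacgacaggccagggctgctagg

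The ratio of Tap1 to Psmb9 FPKM was 3.10, 1.58 and 1.92 in KO tumours and 1.48 and 1.41 in WT tumours, with all 3 KO libraries higher and KO 1 highest, where Psmb9 was lowest. In GENCODE vM21 the Tap1 and Psmb9 genes overlap on opposite strands. The sources used here do not give the strand setting of the counting, so fragments from the overlap may not have been told apart. The same holds for 14 of the 26 tested members, which overlap some gene on the other strand, among them H2-T23, H2-T22, Psmb8, Psmb10, H2-Eb1 and H2-DMa.

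Nlrc5, the class I transactivator, was at 2.04, 2.04 and 1.88 FPKM in KO tumours and at 2.04 and 1.64 FPKM in WT tumours. Its lowest library was WT 2, and its log2 difference was 0.08 (SE 0.178). H2-Ke6, also called Hsd17b8, carries an H2- symbol for its position but encodes a hydroxysteroid dehydrogenase. It was at 24.7, 29.2 and 23.8 FPKM in KO tumours and 26.9 and 25.3 FPKM in WT tumours.

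The class II genes behaved unlike class I. H2-Aa and H2-Ab1, the alpha and beta chains of I-A, and H2-Eb1, the beta chain of I-E, all took their highest value in WT 2 and their lowest in KO 2. H2-Aa (ENSMUSG00000036594, chromosome 17, 34282744 to 34287823, minus strand) was at 70.6, 48.2 and 55.5 FPKM in KO tumours and 51.3 and 102 FPKM in WT tumours. H2-Ab1 was at 36.4, 21.8 and 25.4 FPKM in KO tumours and 27.1 and 50.03 FPKM in WT tumours. H2-Eb1 was at 32.3, 23.4 and 25.5 FPKM in KO tumours and 23.5 and 44.2 FPKM in WT tumours. In each of them KO 1 lay above WT 1, so the genotypes overlapped. H2-Ea-ps, the alpha chain of I-E, is known to be silent in strains of the b haplotype such as C57BL/6, and was listed at 0 in every library.

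The start windows of H2-Aa and H2-Eb1 are shown because these chains took the same order of highest and lowest library. Class II promoters are known for a shared module of S, X and Y boxes on which CIITA acts. Capitals mark CCAAT, the core of the Y box, and TGACG, the core of the X2 box, on either strand.
H2-Aa, chr17:34287774-34288073, minus strand: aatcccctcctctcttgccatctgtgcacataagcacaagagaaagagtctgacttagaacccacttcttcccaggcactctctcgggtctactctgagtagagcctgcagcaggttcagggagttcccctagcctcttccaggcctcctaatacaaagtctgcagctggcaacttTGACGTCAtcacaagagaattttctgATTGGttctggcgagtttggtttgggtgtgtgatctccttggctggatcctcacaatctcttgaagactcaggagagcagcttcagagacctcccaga
H2-Eb1, chr17:34305617-34305916, plus strand: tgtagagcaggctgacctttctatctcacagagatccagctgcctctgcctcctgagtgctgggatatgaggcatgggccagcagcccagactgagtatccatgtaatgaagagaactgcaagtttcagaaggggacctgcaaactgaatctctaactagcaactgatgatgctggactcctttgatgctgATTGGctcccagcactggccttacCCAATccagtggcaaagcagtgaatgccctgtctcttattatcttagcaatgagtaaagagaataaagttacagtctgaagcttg

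The H2-Aa window holds TGACG once on each strand, the matches overlapping as TGACGTCA, and a CCAAT on the minus strand. The H2-Eb1 window holds CCAAT once on each strand and no TGACG. The windows are 54.3% identical over 208 aligned bases, against 88.3% over 239 for H2-K1 and H2-D1. CCAAT is found in 3 of the 4 windows of tested class II genes, and in 8 of the 9 windows of tested class I heavy chains.

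The helpers of class II followed the chains. Cd74, the invariant chain, was at 101, 77.1 and 80.3 FPKM in KO tumours and at 78.0 and 137 FPKM in WT tumours. H2-DMa and H2-DMb1 form H2-DM, which exchanges the invariant chain fragment for peptide. H2-DMa was at 5.68, 3.18 and 4.93 FPKM in KO tumours and 4.80 and 7.76 FPKM in WT tumours, and H2-DMb1 at 3.60, 2.5 and 3.97 FPKM in KO tumours and 3.28 and 5.90 FPKM in WT tumours. WT 2 was highest and KO 2 lowest in all 3 of these genes.

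The low class II genes had mostly the same highest library. H2-DMb2 was at 1.14, 0.47 and 0.60 FPKM in KO tumours and 0.62 and 1.15 FPKM in WT tumours. H2-Oa, a chain of H2-DO, which restrains H2-DM in B cells, was at 0.48, 0.10 and 0.23 FPKM in KO tumours and 0.23 and 0.85 FPKM in WT tumours. H2-Ob, its partner, was highest in KO 1 at 0.32 FPKM, against 0.31 FPKM in WT 2. Ciita was at 0.63, 0.26 and 0.34 FPKM in KO tumours and 0.48 and 0.70 FPKM in WT tumours, with WT 2 highest and KO 2 lowest.

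Of the 6 class II genes tested, 6 were highest in WT 2 and 6 lowest in KO 2, where 35.0% of all genes tested were highest in WT 2 and 11.8% lowest in KO 2. Of the 10 class II genes above 0, 9 were highest in WT 2. Of the 11 class I heavy chains tested, 1 was highest in WT 2 and 5 (45.5%) in KO 2, and of the 7 light chain, loading and immunoproteasome genes 5 (71.4%) were highest in KO 2, where 15.9% of all genes tested were. KO 2 was thus the lowest library for class II and the most frequent highest one for class I. Within WT, the ratio of WT 2 to WT 1 FPKM was 1.62 to 1.99 over the 6 class II genes and 0.672 to 1.21 over the 11 heavy chains. The ratio of KO to WT means over the same 6 genes was 0.722 to 0.80, so the spread between the WT libraries was the larger.

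**Figure D2:**
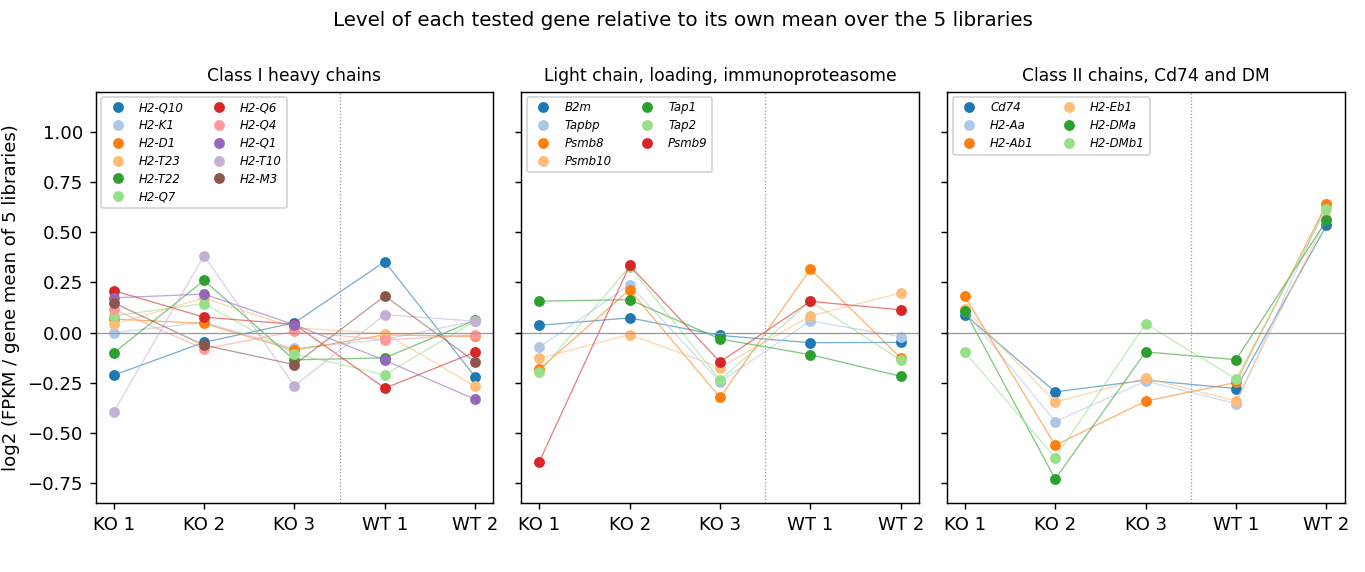
Level of each tested member in each library, as log2 of its FPKM over its own mean of the 5 libraries, in 3 panels by role; points are libraries and thin lines join the points of a gene. All 6 class II genes lie above their mean in WT 2 and below it in KO 2 and WT 1, while 5 of 11 class I heavy chains and 5 of 7 genes of the middle panel are highest in KO 2 and H2-Q10 peaks in WT 1.

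All 6 class II genes tested had a lower mean log2 value in KO, with log2 differences of -0.42 to -0.26, standard errors of 0.248 to 0.293 and a median of -0.33, where 38.6% of all genes tested were lower and the median was 0.05. None passed the test (limma adjusted p = 0.999 each, lowest unadjusted p = 0.182). The lower direction held after each rescaling, with medians of -0.38 to -0.31, and turned without WT 2, where the median was 0.07 and that of all genes tested 0.16. Without WT 1 it was -0.69, where that of all genes tested was -0.07, and H2-Aa then had a log2 difference of -0.82 (limma adjusted p = 0.291). In the authors' deposited table, the smallest p-values of the members belong to H2-Ab1 (0.0624) and H2-Aa (0.101), with false discovery rates of 0.999862. There, 36 of all 22287 genes (0.162%) had a false discovery rate under 0.05.

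**Figure D3:**
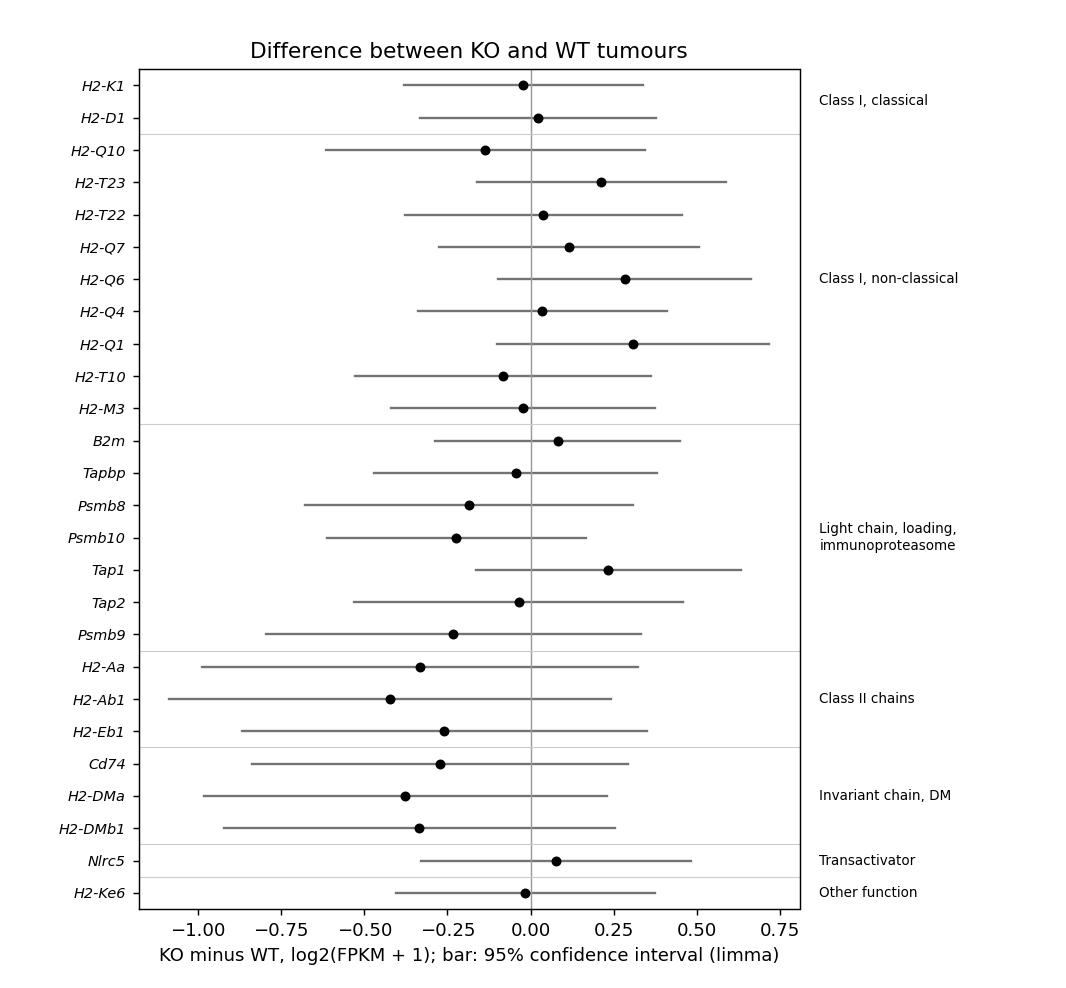
Log2 difference of KO minus WT for the 26 members tested (points) with its 95% confidence interval (bars), on the log2(FPKM + 1) scale by limma. Every interval includes 0; the 6 class II genes lie between -0.42 and -0.26 and H2-K1 and H2-D1 at -0.02 and 0.02.

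Set against each other within a library, the summed FPKM of the class I heavy chains was 2709, 2916 and 2876 in KO tumours and 3271 and 2677 in WT tumours. The summed FPKM of the class II chains was 139, 93.5 and 106 in KO tumours and 102 and 197 in WT tumours. The ratio of class I to class II was thus 19.4, 31.2 and 27.1 in KO tumours and 32.1 and 13.6 in WT tumours, with WT 1 and WT 2 at its ends. The difference of KO minus WT in the log2 ratio was 0.28, against 0.90 without WT 1 and -0.34 without WT 2. Leaving H2-Q10 out of the sum, a choice made after seeing the data, the ratio was 10.04, 15.5 and 12.3 in KO tumours and 13.1 and 7.002 in WT tumours.

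Within class II, the proportions of the chains varied little beside their levels. The ratio of H2-Aa to H2-Ab1 FPKM was 1.94, 2.21 and 2.19 in KO tumours and 1.90 and 2.04 in WT tumours. That of H2-Eb1 to H2-Aa was 0.458, 0.486 and 0.459 in KO tumours and 0.459 and 0.432 in WT tumours, and that of Cd74 to H2-Aa was 1.43, 1.60 and 1.45 in KO tumours and 1.52 and 1.34 in WT tumours. For both of the last 2 ratios, KO 2 was highest and WT 2 lowest.

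Markers of cells that make class II were read in the same libraries. In bulk tissue, fewer cells of a type and less RNA per cell cannot be told apart. The 9 dendritic cell markers summed to 5.07, 2.90 and 4.02 FPKM in KO tumours and to 3.49 and 7.61 FPKM in WT tumours, the same order of libraries as the class II chains, from WT 2 through KO 1, KO 3 and WT 1 to KO 2. Cd209a was at 1.02, 0.41 and 0.86 FPKM in KO tumours and 0.60 and 2.15 FPKM in WT tumours, and Itgax, the integrin CD11c, at 0.99, 0.49 and 1.04 FPKM in KO and 0.85 and 1.90 FPKM in WT tumours. Only these 2 of the 9 reached the filter, and Cd209a and Itgax gave 2.15 and 1.90 of the 7.61 FPKM in WT 2. None of the 9 was at 0 in all libraries, and 5 were highest in WT 2, where 35.0% of all genes tested were highest. Zbtb46 was instead highest in KO 2 and lowest in WT 1, at 0.84, 0.89 and 0.64 FPKM in KO and 0.45 and 0.65 FPKM in WT tumours. Clec9a was highest in KO 1, at 0.54 FPKM, against 0.39 FPKM in WT 2. The part of dendritic cells in the class II levels was not tested.

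The sums of the other marker lists took other orders of libraries. The 8 B cell markers, none of which reached the filter, summed to 3.80, 2.16 and 1.61 FPKM in KO tumours. In WT tumours they summed to 3.57 and 1.44 FPKM, with WT 2 lowest of all libraries. Cd79a and Cd79b, the signalling chains of the B cell receptor, lay differently. Cd79a overlapped, at 1.21, 0.75 and 0.41 FPKM in KO and 1.32 and 0.59 FPKM in WT tumours, and Cd79b was above WT in every KO library, at 1.38, 0.88 and 0.80 FPKM in KO and 0.69 and 0.53 FPKM in WT tumours.

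The 11 macrophage and Kupffer cell markers summed to 181, 103 and 182 FPKM in KO tumours and 119 and 158 FPKM in WT tumours. This sum was lowest in KO 2, as class II was. The same held for Adgre1, Csf1r, Cd68, Vsig4, C1qa, C1qb, C1qc and Cx3cr1, while Clec4f, Timd4 and Marco were lowest in WT 2. WT 2 lay above WT 1 in every marker lowest in KO 2. The ratio of WT 2 to WT 1 FPKM was 1.95 for Csf1r, 1.651 for Cx3cr1, 1.552 for Adgre1 and 1.49 for C1qa. It was 0.7315 for Clec4f, 0.5938 for Marco and 0.4483 for Timd4. A higher mean log2 value in KO was seen in 8 of the 10 tested, against 61.4% of all genes tested. The complement chains C1qb and C1qc were the most abundant. C1qb was at 44.8, 27.3 and 44.5 FPKM in KO and 35.8 and 43.7 FPKM in WT tumours, and C1qc at 40.3, 23.3 and 40.5 FPKM in KO and 24.8 and 35.2 FPKM in WT tumours. Marco, a scavenger receptor, was above WT in every KO library, at 3.01, 1.28 and 3.58 FPKM in KO and 0.96 and 0.57 FPKM in WT tumours (limma adjusted p = 0.999, unadjusted p = 0.0094). Timd4, a Kupffer cell receptor below the filter, was too, at 0.73, 0.45 and 0.86 FPKM in KO and 0.29 and 0.13 FPKM in WT tumours. Cd68, the 1 marker of the 11 highest in WT 2, was lowest in KO 2, as class II was. It was at 9.71, 7.06 and 13.2 FPKM in KO and 9.42 and 13.5 FPKM in WT tumours.

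The 6 plasma cell markers summed to 186, 209 and 124 FPKM in KO tumours and 249 and 589 FPKM in WT tumours, below both WT libraries in every KO library and highest in WT 2 as class II was. Of the 5 tested, 4 had an unadjusted limma p under 0.05, all lower in KO, against 3.23% of all genes tested. None passed the test (lowest limma adjusted p = 0.999). Igha, which encodes the constant part of IgA, had 44.6, 58.5 and 12.3 FPKM in KO and 81.5 and 248 FPKM in WT tumours. Its ratio of WT 2 to WT 1 was 3.04, and no value without WT 2 is given for these markers. Sdc1, which hepatocytes also express, overlapped, at 76.9, 78.5 and 86.4 FPKM in KO and 77.5 and 98.8 FPKM in WT tumours.

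The 12 T and NK cell markers, none of which reached the filter, summed to 5.01, 2.06 and 2.33 FPKM in KO tumours and 8.99 and 5.12 FPKM in WT tumours, with KO 1 just below WT 2. Trac, a T cell receptor chain, was at 0.98, 0.11 and 0.34 FPKM in KO and 1.3 and 0.99 FPKM in WT tumours, and Nkg7, of cytotoxic granules, at 0.44, 0.52 and 0.48 FPKM in KO and 1.28 and 0.97 FPKM in WT tumours. The part of these cells in the class II levels was not tested either.

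Resident liver cells were read in the same way. The 6 sinusoidal endothelial markers summed to 79.5, 49.6 and 60.1 FPKM in KO tumours and 52.3 and 46.8 FPKM in WT tumours. All 6 were tested and had a higher mean log2 value in KO, against 61.4% of all genes tested. Lyve1 and Kdr were above WT in every KO library, as 9.78% of all genes tested were, and the other markers overlapped. Lyve1 was at 18.1, 6.58 and 7.92 FPKM in KO and 5.06 and 5.08 FPKM in WT tumours (limma adjusted p = 0.999, unadjusted p = 0.0421). Clec4g, a lectin of these cells, was at 22.96, 10.37 and 21.7 FPKM in KO and 17 and 9.05 FPKM in WT tumours, and Pecam1, the adhesion molecule CD31, at 13.4, 12 and 10.26 FPKM in KO and 10.7 and 13.1 FPKM in WT tumours.

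The 6 hepatocyte markers gave 101000 to 101900 FPKM in KO tumours and 118200 and 90590 FPKM in WT 1 and WT 2, a sum carried by Alb and Apoa1. Apoa1, the main protein of HDL, was at 16302, 19751 and 15427 FPKM in KO tumours and 19107 and 11655 FPKM in WT tumours. Alb, Apoa1 and Ttr were higher in WT 1 than in WT 2, as H2-Q10 was, and Cps1, Tat and Hnf4a were higher in WT 2. Cps1, of the urea cycle, was at 349, 261 and 374 FPKM in KO and 278 and 563 FPKM in WT tumours, and Tat, which degrades tyrosine, at 123, 202 and 349 FPKM in KO and 194 and 551 FPKM in WT tumours. All 6 were detected in every library, and the part of these cells in the class I levels was not tested.

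**Figure D4:**
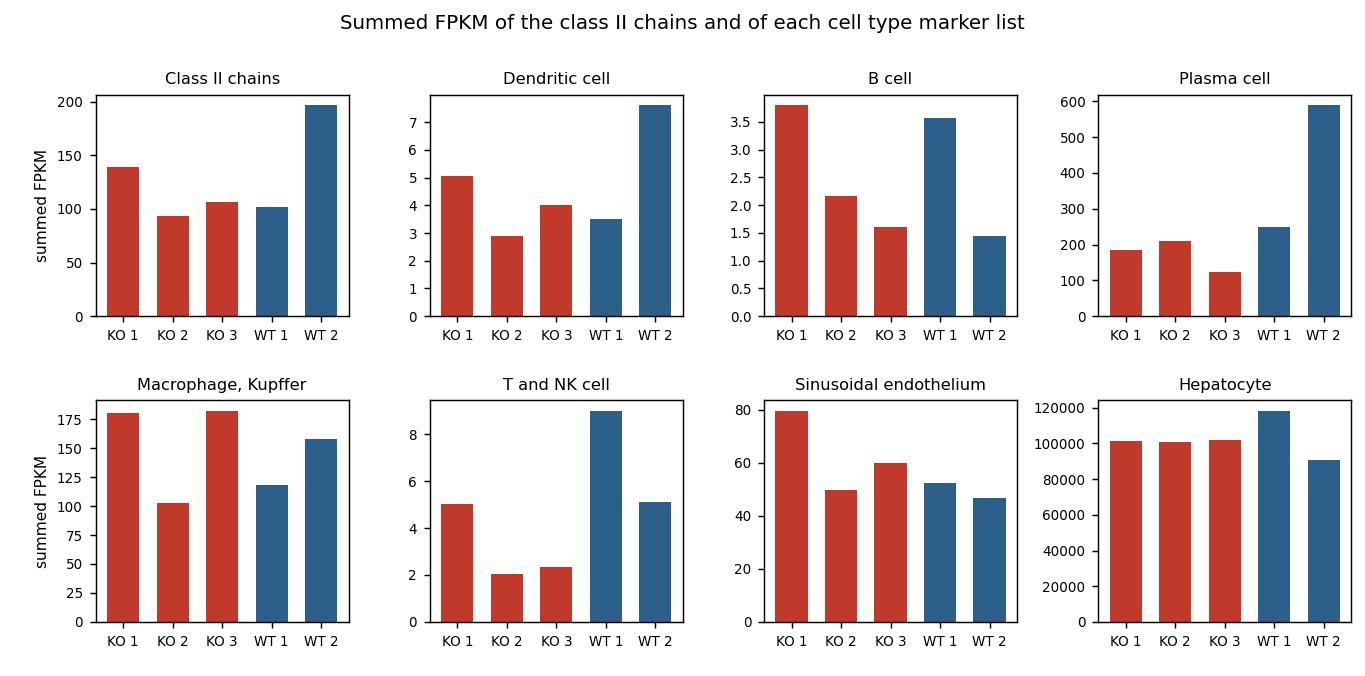
Summed FPKM in each library of the class II alpha and beta chains and of 7 cell type marker lists, 1 panel each with its own axis from 0; red bars are KO and blue bars WT libraries. The class II chains (93.5 to 139 in KO, 102 and 197 in WT) and the dendritic cell markers (2.90 to 5.07 in KO, 3.49 and 7.61 in WT) share the order of the 5 libraries. Of the 9 dendritic cell markers summed, 2 reached the filter.

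The rest of the pathway did not pass the test either. Among 9 further genes of class I loading, 5 had a higher and 4 a lower mean log2 value in KO (median 0.06), where 61.4% of all genes tested were higher. Pdia3, the oxidoreductase ERp57 of the loading complex, was at 228, 202 and 193 FPKM in KO tumours and 176 and 173 FPKM in WT tumours, without overlap. Every KO library lay above WT in 9.78% of all genes tested. Canx, the chaperone calnexin, was at 91.4, 81.3 and 76.5 FPKM in KO tumours and 59.1 and 78.7 FPKM in WT tumours, and Psme2, a proteasome activator subunit, at 21.9, 33.7 and 24.7 FPKM in KO and 32.01 and 29.99 FPKM in WT tumours.

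Of 14 subunits of the standard 20S proteasome, 3 were higher and 11 lower in KO, with a median log2 difference of -0.05. Over all genes tested, 38.6% were lower in KO and the median was 0.05. Psmb1 was at 41.3, 44.1 and 38.3 FPKM in KO tumours and 44.7 and 46.7 FPKM in WT tumours, and Psma7 at 72.5, 71.8 and 67.8 FPKM in KO and 77.2 and 77.1 FPKM in WT tumours. Both were below WT in every KO library, a position seen in 5.29% of all genes tested. Psmb3 overlapped, at 50.8, 62.3 and 53.1 FPKM in KO and 58.2 and 60.5 FPKM in WT tumours.

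Of 8 endosomal genes tested from the class II route, 5 were higher and 3 lower in KO (median 0.03), where 61.4% of all genes tested were higher. Ctsd, the protease cathepsin D, was at 271, 286 and 252 FPKM in KO tumours and 248 and 199 FPKM in WT tumours, without overlap. This position, KO above WT, was seen in 9.78% of all genes tested. Cd63, a tetraspanin of late endosomes, was at 146, 143 and 136 FPKM in KO and 138 and 113 FPKM in WT tumours, and Ctsc, cathepsin C, at 29.4, 28.6 and 24.6 FPKM in KO and 41.2 and 21.8 FPKM in WT tumours. The list took no single order of libraries. Ctsd, Ctsc and Cd63 were lowest in WT 2, where the class II chains were highest. Ctss, the cathepsin that trims the invariant chain, was lowest in KO 2 as the chains were, at 33.3, 16.6 and 34.5 FPKM in KO tumours and 19.6 and 33.7 FPKM in WT tumours. Ctsl, another cathepsin, was highest in WT 2 as the chains were, at 165, 153 and 182 FPKM in KO and 131 and 192 FPKM in WT tumours.

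Of the factors that bind MHC promoters, 6 of 11 were higher and 5 lower in KO (median 0.06), where 61.4% of all genes tested were higher. Rfxank and Rfxap encode partners of Rfx5 in the complex that binds the X box. Rfxank was at 4.33, 4.32 and 4.24 FPKM in KO tumours and 3.41 and 3.41 FPKM in WT tumours, and Rfxap at 3.83, 2.87 and 3.48 FPKM in KO and 4.06 and 3.85 FPKM in WT tumours. The values of each did not overlap, in opposite directions. Over all genes tested, every KO library lay above WT in 9.78% and below WT in 5.29%. Rela, a subunit of NF-kB, was at 18.7, 16.0 and 11.8 FPKM in KO and 13.2 and 12.04 FPKM in WT tumours.

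Interferon gamma is the main inducer of both classes. Of its response genes, 6 of 16 tested were higher and 10 lower in KO, where 38.6% of all genes tested were lower. Their median log2 difference was -0.03. An unadjusted limma p under 0.05 was found for 4 of the 16, against 3.23% of all genes tested. They were the 3 named next and the receptor gene Ifngr1, which was higher in KO (limma unadjusted p = 0.0224). Cxcl9, a chemokine that attracts T cells, was at 11.6, 3.77 and 5.19 FPKM in KO tumours and 16.95 and 24.3 FPKM in WT tumours, and Cxcl10, a related one, at 2.67, 2.60 and 2.16 FPKM in KO and 4.4 and 4.57 FPKM in WT tumours. Iigp1, an interferon-inducible GTPase, lay the other way, at 185, 145 and 207 FPKM in KO tumours and 103 and 124 FPKM in WT tumours. The log2 differences were -1.57 for Cxcl9, -0.66 for Cxcl10 and 0.65 for Iigp1 (limma adjusted p = 0.893, 0.999 and 0.999), each without overlap between genotypes, which was seen in 15.1% of all genes tested. Of the members, 6 of 26 (23.1%) were without overlap as deposited, 5 above and 1 below WT. After median-ratio rescaling 1 was above (H2-Q6) and 2 below (Psmb10 and H2-DMa), and after quantile normalization 2 were above (H2-T23 and H2-Q6) and the same 2 below.

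Of the class I-like genes outside the H2 names, 4 of 5 tested were higher in KO by their means (median 0.15), where 61.4% of all genes tested were. Cd1d1, which presents lipids to NKT cells, was at 35.2, 40.7 and 42.0 FPKM in KO tumours and 29.9 and 33.2 FPKM in WT tumours, without overlap. Of all genes tested, 9.78% had every KO library above WT. Mr1, which presents microbial vitamin B metabolites to MAIT cells, was at 3.51, 5.24 and 3.96 FPKM in KO and 2.68 and 3.73 FPKM in WT tumours. Hfe, which regulates iron uptake, was at 8.55, 8.24 and 9.44 FPKM in KO and 7.54 and 7.95 FPKM in WT tumours. None of the genes named from these 6 lists passed the test, with limma adjusted p = 0.893 for Cxcl9 and 0.999 for the others.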

How the data were processed

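Trizol RNA of 3 KO and 2 WT tumours went into Illumina libraries, according to the labels' protocols. The build mm10 and the tools HISAT2, StringTie, limma, DESeq2 and bcl2fastq 2.0 stand in the submitters' processing notes, without a role for any of them. The deposited table gives the authors' FPKM for each library, to 2 decimals. It also holds the authors' log2 fold change, p-value and false discovery rate, per the file headers; the sources used here do not name the tool behind them. The FPKM table carries no library totals, so depth is unknown and no interval for counting error was computed.

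Values were analysed as log2(FPKM + 1). Genes with a mean of at least 1 FPKM were tested by limma 3.58.1 in R 4.3.3 (two-sided, without covariates, empirical Bayes with trend; 3 residual degrees of freedom), with Benjamini-Hochberg adjustment over all 10132 genes at a threshold of 0.05. The script was tested on simulated data. Members without overlap are those whose KO values all lay on one side of both WT values. Class I and class II were compared by sums and medians, with no test.

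The members and gene lists were chosen with earlier results of these data known. Values per library are given for members with a mean of at least 1 FPKM and for the transactivators, for the 3 genes of smallest unadjusted p in each pathway list, and for the 2 most abundant markers of each cell type; low members and other genes given by value were chosen after their values were seen. From the lists, 9 of 10 endosomal genes were in the table, 1 of them, March1, matched by its gene identifier. Coordinates are 1-based, from GENCODE vM21 (GRCm38, the assembly of mm10), where all 48 members were found. RefSeq start windows were found for 37 of the 48 members; where a gene had several, the first was used.

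Other settings tried were a pseudocount of 0.1 or 5, a minimum mean of 5 FPKM or none, 3 rescalings (common sum, median ratio, quantile), empirical Bayes without trend or in its robust form, a block for replicate number, and each library left out in turn. Plots were made with matplotlib 3.10.9 (Python 3.11.15).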

Additional observations from a re-analysis of the deposited data

How the results depend on the processing

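No member passed the threshold under any alternative, and the lowest adjusted p of a member was 0.291 (limma), for H2-Aa without WT 1. Of all genes, 1 passed as reported; 0 passed after any of the 3 rescalings, without a filter, with a minimum mean of 5 FPKM or with 5 as pseudocount, 3 with robust empirical Bayes, and 0 to 17 with 1 library left out, 17 of them without WT 1. The class II median log2 difference was -0.69 to 0.07 with 1 library left out, positive only without WT 2, and the difference of the log2 ratio of class I to class II was -0.34 to 0.90. For 44 genes, 614 of 652 values kept their direction and side of the threshold, and 37 values in 19 genes changed sign. After rescaling to a common sum H2-Ke6 was at 0.0094 and H2-K1 at 0.0044; after quantile normalization H2-K1 was at 0.10; after median-ratio rescaling H2-D1 was at -0.0365, H2-T22 at -0.0205 and H2-Q4 at -0.0221. With 1 library left out, the range was -0.10 to 0.0402 for H2-Ke6, -0.0673 to 0.0247 for H2-K1, -0.0058 to 0.0716 for H2-D1, -0.42 to 0.15 for H2-Q10, -0.0859 to 0.13 for H2-T22, -0.0176 to 0.25 for H2-Q7, -0.0132 to 0.0809 for H2-Q4 and -0.21 to 0.0008 for H2-T10. It was -0.11 to 0.0635 for H2-M3, -0.17 to 0.0623 for Tapbp, -0.40 to 0.0289 for Psmb8, -0.19 to 0.0908 for Tap2, -0.026 to 0.18 for Nlrc5 and -0.57 to 0.32 for Ctsc. For class II it was -0.82 to 0.16 for H2-Aa, -0.86 to 0.0079 for H2-Ab1, -0.70 to 0.18 for H2-Eb1, -0.67 to 0.13 for Cd74 and -0.68 to 0.0098 for H2-DMb1. The causes of these sign changes were not tested. Genotypes share replicate numbers 1 and 2 only; deviations of same-numbered libraries correlated at 0.0884 and -0.241. With 2 WT libraries these deviations mirror each other, so the check cannot show whether numbers pair the libraries, and as the labels give no pairing they were taken as unpaired. With the replicate number as a block, 62 genes passed, Cxcl9 among them (limma adjusted p = 0.00212), and H2-Ke6 was at 0.0402, H2-K1 at 0.0133, H2-M3 at 0.0116, Tapbp at 0.0623 and Tap2 at 0.0505. These differences equal those without KO 3, since KO 3 is alone in its block and does not enter them. The block fit thus rests on the libraries numbered 1 and 2, with fewer residual degrees of freedom than the 3 of the main fit. Without the block, the adjusted p of Cxcl9 by limma was 0.893, and 0.224 to 1.0 with 1 library left out. Depth is unknown, so counting error of low genes could not be given.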
